A study of Mus musculus with 7 samples.

Results

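Of 77136 regions of open chromatin on chromosomes 1 to 19, 926 (1.20%) had a peak in both libraries of embryonic facial ectoderm and in both molar libraries, and in neither library of Sox2-positive incisor cells nor in the whole incisor. They were chosen by that pattern of presence. From each of 7 peak lists the 38000 peaks with the smallest p-values were taken, ties being settled by peak signal, and peaks of all lists that shared at least 1 bp were merged into regions. Presence and absence in the 7 lists, and the ranks behind them, are therefore given as a description of the members and not as a result. The pattern was the 16th most frequent of the 127 that 7 lists allow. Open in all 7 libraries were 14786 regions, open in both ectoderm libraries alone 9896, and in both molar libraries alone 3729.

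Open chromatin was profiled by ATAC-seq, in which a transposase inserts sequencing adapters where DNA is not wrapped around nucleosomes, in the Omni-ATAC form. The ectoderm came from the first pharyngeal arches of mouse embryos at embryonic day 11.5 and was peeled off the mesenchyme after treatment with Dispase II (replicates 1 and 2). Sox2-positive DESC, the labels' name for dental epithelial stem cells, were sorted by FACS from the labial cervical loop of lower incisors at postnatal day 2, with GFP under the endogenous Sox2 promoter as the marker according to the series design (replicates 1 and 2). Whole teeth of postnatal day 2, namely the lower incisor and the first molar of the lower and of the upper jaw, gave 1 library each. Sox2-GFP is the sole line the series design names, and neither the strain nor any other allele is given for the remaining tissues. No label says whether replicates came from separate litters, nor how many animals were pooled.

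The arch ectoderm covers the embryonic jaws and is the tissue from which the epithelium of teeth, oral lining and facial skin descends. Mouse molars stop growing and form roots, whereas the mouse incisor keeps stem cells in its cervical loop and grows throughout life. A whole tooth germ holds both the epithelium that makes enamel and the mesenchyme that makes dentin and pulp. Regions of open chromatin away from gene starts are often enhancers, short stretches that bind transcription factors and act on genes at a distance. In bulk tissue, fewer cells with an open site and a site that is less open in each cell cannot be told apart.

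A peak at an end of the gene was found for 36 and 36 of 40 genes of stratified epithelium in the ectoderm replicates, 30 and 30 in the Sox2-positive replicates, 23 in the incisor, 31 in the lower molar and 28 in the upper molar. For 30 genes of dental mesenchyme and odontoblasts the counts were 9 and 13, 16 and 20, 19, 16 and 13. Epithelial genes thus led in ectoderm, and the incisor had the fewest of them among the 7 libraries. The mesenchyme genes had their highest count, 20 of 30, in Sox2-positive replicate 2, against 16 in replicate 1 and 19 in the incisor. The purity of the sorted cells was not tested. Trp63, which encodes the p63 protein that defines stratified epithelium, had no peak at either gene end in any library. Starts of transcripts inside a gene do not count as gene ends here. Over Trp63 and 25 kb on each side the ectoderm replicates had 15 and 12 of 21 regions, so the locus was not without peaks. The lists held from 38326 to 80850 peaks on these chromosomes, so that 38000 peaks were 99.2% of the list of Sox2-positive replicate 2 and 47.0% of that of ectoderm replicate 1. Read depth behind the lists is unknown.

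One member lay beside the gene of a microRNA with a known place in epithelium. miR-205, abundant in the epidermis and other stratified epithelia, is processed from a hairpin at chr1:193507463-193507530 on the minus strand of GRCm38. The member at chr1:193503724-193506435 lay 1.03 kb from this hairpin and was, with 2712 bp, the widest of all members. Its best peaks ranked 19915 and 21093 in the ectoderm replicates, 22596 in the lower molar and 15354 in the upper molar, and no peak was listed there in the other 3 libraries even in full. Over the hairpin itself the upper molar had a peak of rank 1513 and the lower molar one of rank 68236, and neither ectoderm library had a peak. The mature sequences, from RefSeq on GRCm38.p6, are shown with the seed (bases 2 to 8) in capitals, since the seed determines which transcripts a microRNA pairs with.
mmu-miR-205-5p: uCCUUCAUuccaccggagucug
mmu-miR-205-3p: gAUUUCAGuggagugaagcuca
Within 10 kb of a microRNA hairpin lay 11 members (1.19%, Wilson 95% interval 0.665 to 2.11), against 1.62% of all regions. The interval of the members includes the share of all regions. The others included Mir34a, a microRNA induced by p53, at 6.82 kb.

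Where a member covered the start of a transcript, the promoter itself is part of the pattern. Promoters of 4 genes are shown here, chosen after their values were seen. Each runs from 250 bases before to 50 after the start of transcription on GRCm38.p6, was taken from RefSeq, and had at least 150 of its bases under a peak in all 4 libraries. Capitals mark matches, on either strand, to the letters of AP-1 (TGANTCA), TFAP2 (GCCNNNGGC), MEIS (TGACAG) and TEAD (GGAATG).
Agtr1b, chr3:20367128-20367427, minus strand: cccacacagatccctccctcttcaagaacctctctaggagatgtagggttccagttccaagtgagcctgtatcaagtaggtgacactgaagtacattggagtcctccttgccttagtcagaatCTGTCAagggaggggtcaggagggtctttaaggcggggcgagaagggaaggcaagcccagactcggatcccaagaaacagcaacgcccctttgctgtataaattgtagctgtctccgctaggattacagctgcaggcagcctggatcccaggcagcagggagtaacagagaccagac
Areg, chr5:91139349-91139648, plus strand: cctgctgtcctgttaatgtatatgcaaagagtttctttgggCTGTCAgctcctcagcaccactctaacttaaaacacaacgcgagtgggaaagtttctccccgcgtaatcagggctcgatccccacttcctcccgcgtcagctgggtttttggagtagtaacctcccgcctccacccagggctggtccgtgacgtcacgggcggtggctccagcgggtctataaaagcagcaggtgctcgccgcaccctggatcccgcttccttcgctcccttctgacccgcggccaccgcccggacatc
Egfros, chr11:16830629-16830928, minus strand: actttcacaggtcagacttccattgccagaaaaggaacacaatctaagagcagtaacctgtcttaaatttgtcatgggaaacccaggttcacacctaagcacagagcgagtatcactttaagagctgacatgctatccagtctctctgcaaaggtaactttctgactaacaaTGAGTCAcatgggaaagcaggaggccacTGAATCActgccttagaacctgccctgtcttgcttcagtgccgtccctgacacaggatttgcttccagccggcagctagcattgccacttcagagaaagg
Nipsnap3a, chr4:52989034-52989333, plus strand: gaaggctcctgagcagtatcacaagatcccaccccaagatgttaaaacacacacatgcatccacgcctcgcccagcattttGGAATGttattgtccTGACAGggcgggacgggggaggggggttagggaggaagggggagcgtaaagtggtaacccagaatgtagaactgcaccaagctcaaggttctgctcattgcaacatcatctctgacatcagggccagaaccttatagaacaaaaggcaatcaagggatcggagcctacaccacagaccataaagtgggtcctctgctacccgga
Agtr1b, an angiotensin receptor, held the member at a gene end with the best ranks. Areg encodes amphiregulin, a ligand of the epidermal growth factor receptor, and Egfros is a transcript antisense to Egfr, the gene of that receptor. In Egfros the AP-1 matches were TGAGTCA at bases 173 to 179 and TGAATCA at bases 201 to 207, counted from 1 at the 5′ end of the printed sequence. Nipsnap3a had a TEAD match at bases 82 to 87 and a MEIS match at bases 97 to 102.

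Members sat in the middle of the ectoderm lists and lower in the molar lists. Their median rank was 19134 and 19117 in the ectoderm replicates, 27418 in the lower molar and 26754 in the upper molar. Among the top 19000 peaks were 49.7% and 49.8% of members in ectoderm, and 14.0% and 17.9% in the molars. In 566 members (61.1%) both ectoderm ranks were better than both molar ranks, and in 12.4% the reverse held. The best-ranked member of any list was at rank 672, in ectoderm replicate 1, while the best in the molars were at 7759 and 6951. Ranks order peaks within a list and do not measure openness between lists.

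**Figure D1:**
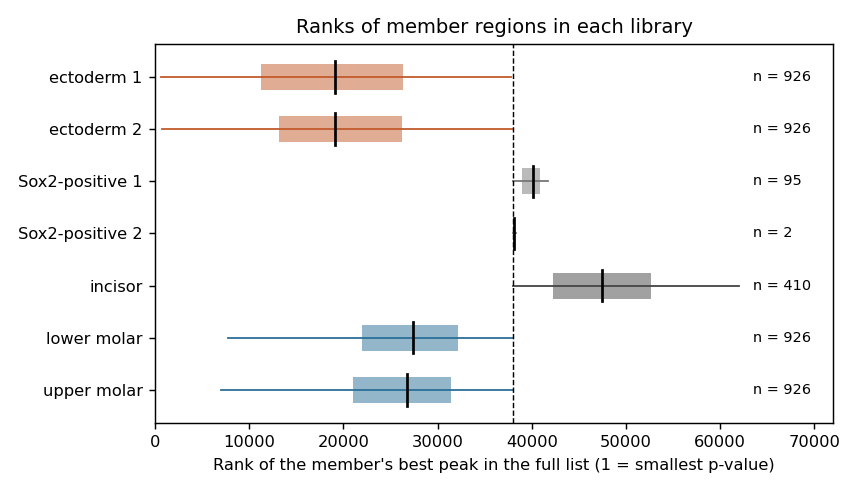
Rank of the best peak of each member in the full list of each library (x axis, 1 being the smallest p-value). Boxes span the quartiles, black ticks mark medians, thin lines run from the lowest to the highest rank, n counts members with a peak, and the dashed line marks rank 38000. Medians lie at 19134 and 19117 in ectoderm and at 27418 and 26754 in the molars, and the 410 members with an incisor peak have it beyond the line.

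Absence from the 38000 strongest peaks is not absence from the deposited lists. In the full incisor list 410 members (44.3%, 41.1 to 47.5) had a peak, with a median rank of 47460. Of all 39862 regions with no incisor peak among the top 38000, 30.6% had one in the full list. Because the rule used the incisor list itself, nothing is read from these shares. Sox2-positive replicate 1 had a peak at 95 members in its full list (10.3%) and replicate 2 at 2, but these lists held few further peaks. No peak in any of the 3 full lists was found for 475 members (51.3%), 356 had one in the incisor alone, 54 in the incisor and Sox2-positive replicate 1, and 41 in that replicate and not in the incisor.

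How far single libraries set the membership was read by leaving each out of the rule and asking what it showed at the regions the others selected. Without ectoderm replicate 1 the rule gave 1056 regions, and that replicate had a peak at 88.0% of them. Without ectoderm replicate 2 these were 1038 regions and 89.3%. For the molars the values were 1339 regions and 69.2% with the lower molar left out, and 1191 and 77.7% with the upper. The ectoderm side of the pattern was thus repeated more often than the molar side. The molar libraries come from different teeth, and members also ranked lower in the molar lists, nearer to the limit. The part of either in this difference was not tested. Without Sox2-positive replicate 1 the pattern counted 1551 regions, over 1.5 times as many, and that replicate had a peak at 40.3% of them, whereas replicate 2 had one at 11.4% of the 1045 regions found without it.

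Membership also moved with the processing of the lists. Ranking the peaks by signal in place of p-value gave 828 regions, which 526 members (56.8%) overlapped, and requiring 50% of a region to be covered gave 1176 regions and 570 members (61.6%). With 30000 peaks per library 676 regions had the pattern and 366 members (39.5%) overlapped one of them, and with 20000 peaks these were 400 regions and 63 members (6.80%). All listed peaks gave 3041 regions and held 474 of the members (51.2%). With windows of 200 bp around the summits 824 members (89.0%) overlapped a region with the pattern. Membership thus depends on the ranking, the length of the lists and the overlap asked for, and a region outside the set is not shown to lack the pattern.

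**Figure D2:**
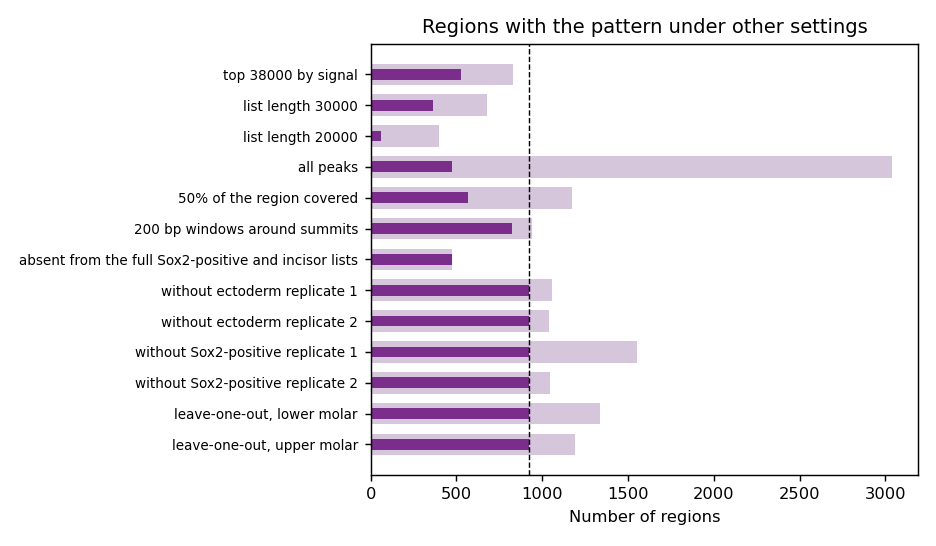
Number of regions with the pattern (x axis, light bars) under each other setting (y axis), and number of the 926 members that overlap one of them (dark bars). The dashed line marks 926. The light bars run from 400 regions with 20000 peaks per library to 3041 with all peaks, and the dark bar is shortest, at 63, with 20000 peaks.

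Few members lay at the ends of genes. The centres of 57 of 926 fell less than 1 kb from where a protein-coding gene begins or ends (6.16%, Wilson 95% interval 4.78 to 7.89), against 16.8% of all regions and 58.6% of the regions open in all 7 libraries. Of the 12952 regions this close to a gene end, 8665 were open in all 7 libraries, and the rule bars such regions. The contrast with all regions and with all-7 regions was thus set in part by the rule, and nothing is read from it. Ectoderm-alone regions had 7.30%, a difference from the members of -1.14 percentage points (-2.61 to 0.666, Newcombe interval), which includes 0. Molars-alone regions had 2.41%, and the members were higher by 3.74 points (2.26 to 5.54). Regions shared by ectoderm and Sox2-positive cells only, 408 in number, had 21.8%, and the members were lower (members minus others, -15.7 points, -20.1 to -11.5). These intervals count regions and hold no error between animals, and the share was 8.25% with all peaks and 11.75% with 20000 per library.

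Between 1 and 10 kb from a gene end lay 229 members (24.7%), between 10 and 50 kb 347 (37.5%) and beyond 50 kb 293 (31.6%). The share beyond 50 kb was lower than in ectoderm-alone regions (members minus others, -4.39 points, -7.46 to -1.19) and lower than in molars-alone regions (-8.96 points, -12.3 to -5.52). The band from 10 to 50 kb was the fullest, and there the members were above ectoderm-alone regions by 4.25 points (1.05 to 7.54). Inside a gene body were 516 members (55.7%, 52.5 to 58.9), and 58.2% of all regions were, a difference of -2.51 points (-5.75 to 0.673).

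**Figure D3:**
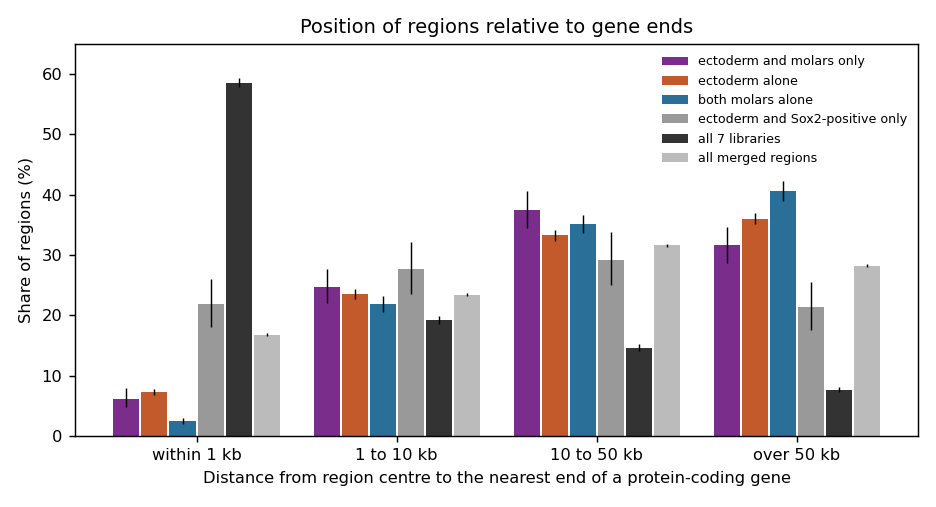
Share of regions (y axis, %) by distance from the region's centre to the nearest end of a protein-coding gene (x axis), for the members and 5 other sets of regions. Bars start at 0 and error bars are Wilson 95% intervals. Within 1 kb the members stand at 6.16% beside 7.30% for ectoderm-alone regions and 58.6% for regions open in all 7 libraries, which the rule bars.

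Member regions had a median width of 784 bp, against 691.5 bp for ectoderm-alone, 504 bp for molars-alone and 1420 bp for all-7 regions. Merged width grows with the number of lists that contribute, so the sets are not equal in this. The peak summits of the libraries fell close together within a member. Summits of the ectoderm replicates lay within 100 bp of each other in 93.1% of members (91.3 to 94.6), those of the molars in 94.3% (92.6 to 95.6), and those of an ectoderm and a molar library in 83.4% to 86.0%. In regions open in all 7 libraries the summits across the tissues agreed within 100 bp in 81.1% to 82.6%. The embryonic and the postnatal summits thus mostly lay within 100 bp of each other, as they did in the all-7 regions. Peaks that overlap in a narrow region have summits close by in any case, and no expected share was computed.

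The spacing of members along the chromosomes was also counted. Of the members, 57 (6.16%) had another member within 25 kb, in 28 clusters. The share with a neighbour of the same set was 30.9% for ectoderm-alone and 17.0% for molars-alone regions. Those sets are larger, which by itself shortens their spacing. No expected share was computed, so members are not shown to be more or less clustered. The share of regions that were members ran from 0.789% on chromosome 8 to 1.48% on chromosome 13. One cluster had 3 members, at chr16:18597891-18615679 beside Tbx1, a T-box transcription factor of the pharyngeal arches, and Gp1bb. Pairs lay in Lgr6, Fgfr2, Trp63 and Bcl11a. Further pairs, too distant to be assigned to a gene here, had as their nearest gene ends those of Lef1 at 174 and 185 kb and Ctnnb1 at 111 and 135 kb, both of which encode transcriptional partners in WNT signalling.

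The members with the best ranks in all 4 libraries were ordered by the worst of their 4 ranks. The first, 20.5 kb from Ppp1r13b, which encodes the p53-binding protein ASPP1, ranked 3849 and 6798 in ectoderm and 8278 and 7498 in the molars. An incisor peak was listed there at rank 38150, just past the limit. The second, 0.242 kb from an end of Agtr1b, ranked 5039, 8748, 7863 and 8217 in the same order, with an incisor peak at rank 46303. Both of these members thus had a weak peak in the incisor.

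The third lay inside Akt1, a kinase of growth factor signalling, at chr12:112660298-112661888, with ranks 672 and 1408 in ectoderm and 9891 and 6951 in the molars. Of the first 15 members 12 had a peak in the full incisor list, which by the rule lies beyond rank 38000 (410 of all 926 members had one), and those assigned to Cfap300 and Usp31 were among the 3 without one. Others of the 15 had their nearest gene ends at Pcdh7, Rbm20, Apoc1, Hacd4, Gtf2ird1, Tank, Col12a1, Tmem94 and Slamf9, with worst ranks from 10161 to 14602.

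At gene ends, Agtr1b and Tmem94 were followed by Lypd6b, Orm3 and Foxm1, the last a transcription factor of dividing cells. The Foxm1 member lay 0.640 kb from its end, inside the neighbouring gene Tex52, and ranked 11090 and 17795 in ectoderm and 20327 and 14979 in the molars. Sox2-positive replicate 1 had a peak there at rank 40883. The member at Lypd6b ranked 13139 and 15156 in ectoderm and 17920 and 14964 in the molars. Past the limit it had a peak of Sox2-positive replicate 1 at rank 41422 and of the incisor at 47724. For Orm3 the ranks were 15534, 18570, 14295 and 12620. Orm3 had better ranks in the molars than in the ectoderm, unlike Lypd6b, Foxm1 and Tmem94 in ectoderm replicate 1.

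With the nearest gene end within 100 kb as the assignment, 769 members went to 723 of 20665 protein-coding genes (3.50%). One member each had 684 genes, 33 had 2 and 6 had 3 or more. Galnt18, a glycosyltransferase gene, had 4 members among 15 regions, of which 3 lay inside it. The one with the best worst rank, at chr7:111771019-111772362, ranked 1704 and 2946 in ectoderm and 16139 and 19632 in the molars. Past the limit it had a peak of Sox2-positive replicate 1 at rank 38220 and of the incisor at 39804. Trp63, Ptpn14, Ktn1 and Ank3 were among those with 3. Ptpn14 encodes a phosphatase that restrains the Hippo effector YAP, and all its 3 members lay within the gene body, as did those of Ank3, which encodes ankyrin G.

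Ppp1r13b, 2900026A02Rik, Pibf1, Med13l, Rab38, Bcl11a, Kcnk2, Lgr6 and Egfr followed with 2 members each. Long genes have more regions, and a count of members per gene follows from that in part: Ank3 spans 494 kb and Galnt18 308 kb. Lgr6, a receptor of R-spondins that marks stem cells in skin, had members at 28.1 and 35.5 kb from its end. The closer one ranked 7371 and 6491 in ectoderm and 25046 and 15704 in the molars, and the other 8949, 13717, 20829 and 21008. Neither had an incisor peak in the full list, but at the farther one Sox2-positive replicate 1 had a peak at rank 39015.

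Regions near genes of the list named stratified epithelium were members more often than regions near genes at large. Of 299 regions assigned to the 40 genes of this list 14 were members (4.68%, Wilson 95% interval 2.81 to 7.71), against 769 of 64993 assigned regions (1.18%). They belonged to 10 genes: Trp63 with 3, Fgfr2 and Krt7 with 2, and Cdh1, Esrp2, Itga6, Jup, Krt5, Perp and Zfp750 with 1 each. The interval counts regions of the same gene as separate. The list was also written with earlier results of these data known, so its share is a description and not a test. Krt7 is a keratin of simple and glandular epithelia, so the list is broader than its name. The share was 5.04% among regions over 1 kb from a gene end, where 1.37% of all regions were members, and 5.48% when regions were given to the gene whose body holds them, against 1.15%. Ectoderm-alone regions made up 16.7% of the list's regions against 11.9% of all, and molars-alone regions 5.02% against 4.28%. Members of the list that had no peak in any full Sox2-positive or incisor list numbered 8 (2.68%, 1.36 to 5.19, against 0.580% of all assigned regions). With 20000 peaks per library 3 regions of the list had the pattern (1.82%, 0.620 to 5.21, against 1.02%), and that interval includes the share of all regions. The incisor had the fewest peaks at ends of these genes, 23 of 40, and the part of epithelial cell content in the result was not tested.

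**Figure D4:**
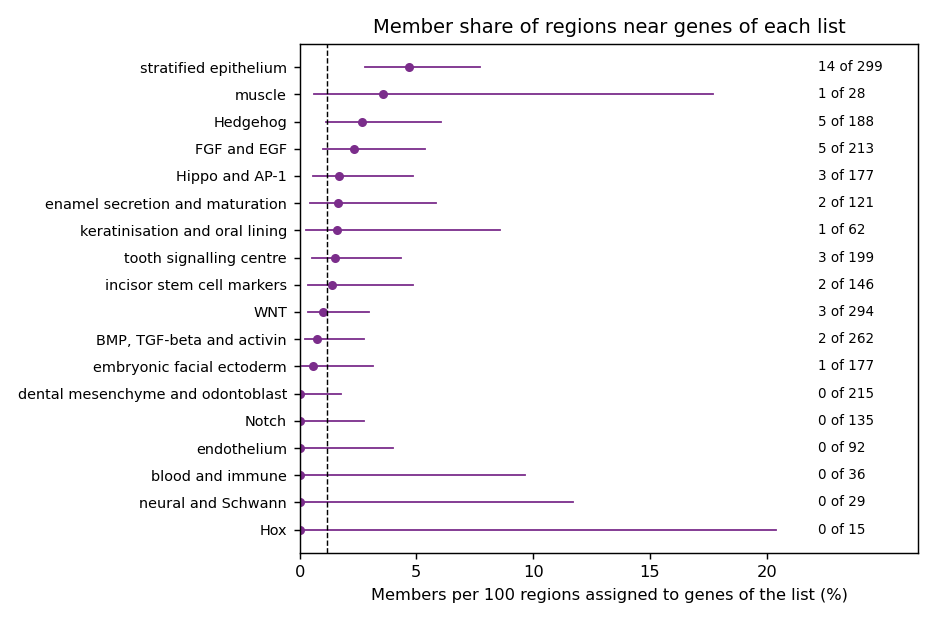
Members per 100 regions (x axis, %) among regions assigned to the genes of each of 18 lists (y axis), with the counts at the right. Points are shares, lines are Wilson 95% intervals and the dashed line is the share over all genes, 1.18%. The stratified epithelium list, at 4.68%, has an interval that lies wholly above the line. All lists were written with earlier results of these data known.

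Within Trp63 the member at chr16:25801517-25802162 ranked 13093 and 14292 in ectoderm and 14800 and 19324 in the molars, with an incisor peak at rank 50946. The member at chr16:25825874-25826572 ranked 20238 and 25285 in ectoderm and 18909 and 14168 in the molars. The third lay between genes, 98.8 kb from the end of Trp63, with ranks 28073, 18044, 27620 and 20013. Thus the ranks in molars and in ectoderm were of the same order at Trp63, where the typical member ranked higher in ectoderm.

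Structural genes of epithelium followed. Krt7, a keratin of simple and glandular epithelia, had a member 15.5 kb from its end that ranked 18335 and 19116 in ectoderm and 24791 and 21844 in the molars. A second, 0.776 kb from the same gene, ranked 9507, 11839, 29525 and 19877 and had an incisor peak at rank 40477. In ectoderm replicate 2 its peak ran on over the gene end, while the strong peaks of the other 3 libraries stopped more than 1 kb short of it. Krt5, the keratin of basal cells, had a member 4.52 kb away that was weak in all 4 lists, with ranks 28627, 29720, 33190 and 32957.

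Genes of cell adhesion had members close to or within them. The member in Cdh1, the gene of E-cadherin, ranked 21045 and 33521 in ectoderm and 25694 and 31091 in the molars. That in Itga6, an integrin of hemidesmosomes, ranked 26693, 35472, 32922 and 34146. Jup, the gene of plakoglobin in desmosomes, had a member 5.80 kb away with ranks 26988, 15184, 31416 and 30848. The member in Perp, a p63 target of desmosomes, ranked 23838, 17308, 33409 and 33353. All of these but Jup had no incisor peak in the full list, and all had at least 1 molar rank beyond 30000. At the Cdh1 member Sox2-positive replicate 1 had a peak at rank 38785, past the limit.

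Zfp750, a transcription factor of epidermal differentiation that acts downstream of p63, had a member with better ectoderm ranks than those of the adhesion genes. It ranked 6698 and 10463 in ectoderm and 20142 and 34582 in the molars, with the lower and the upper molar far apart. Esrp2, a splicing factor of epithelial cells, had a member 3.71 kb away with ranks 21378, 21106, 27262 and 36094, and an incisor peak at rank 38352, near the limit. Fgfr2, whose epithelial isoform receives FGF signals from mesenchyme and which also stands in the FGF list, had intragenic members with ranks 5391, 7958, 19526 and 26766, and 27260, 22175, 20357 and 15709. The first of these ranked higher in the ectoderm lists, the second in the molar lists.

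Hedgehog pathway genes had 5 members in 188 regions (2.66%, 1.14 to 6.07), an interval that includes the 1.18% of all regions. Shh, the ligand expressed by the epithelium of tooth germs, had its member 0.226 kb from the gene end at chr5:28466297-28467453, inside the gene, with ranks 34595 and 32607 in ectoderm and 22494 and 19560 in the molars. It was thus near the limit in the ectoderm lists and ranked higher in the molar lists. None of the 3 other libraries had a peak there in full. Disp1, needed for release of the ligand, had a member with ranks 4909, 1596, 24585 and 18970, and the transcription factor genes Gli2 and Gli3 had one each.

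FGF and EGF pathway genes had 5 members in 213 regions (2.35%, 1.01 to 5.38), in Fgfr2, Egfr and Areg, and the interval includes the 1.18% of all regions. The member over the Areg promoter shown above ranked 18256 and 13383 in ectoderm and 36380 and 37378 in the molars, and had no peak in the full lists of the other libraries. The member in Egfr, which holds the Egfros promoter, ranked 20705 and 20687 in ectoderm and 17649 and 21128 in the molars. Its 4 ranks were close together, and again the other 3 full lists had no peak. Areg had 2 assigned regions and Egfr 19.

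None of the remaining lists with a member had an interval apart from the share of all regions. WNT genes had 3 members in 294 regions (Lgr6 with 2 and Lrp6), Hippo and AP-1 genes 3 in 177 (Tead1, Fosl2 and Fosb), tooth signalling centre genes 3 in 199 (Shh, Bmp2 and Bmp7) and BMP, TGF-beta and activin genes 2 in 262 (Bmp2 and Bmp7). Enamel genes had 2 in 121, at Alpl and Itgb6, and embryonic facial ectoderm genes 1 in 177, at Tfap2b. Markers of incisor stem cells had 2 in 146, both in Lgr6, and keratinisation genes 1 in 62, at Dsc2. Muscle genes had 1 in 28, at Pax7, and the intervals of all these lists include 1.18%.

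No member was assigned to a gene of dental mesenchyme and odontoblasts, in 215 regions (upper limit of the interval 1.76%), nor of the Notch pathway (135 regions), endothelium (92), blood and immune cells (36), neural and Schwann cells (29) or Hox genes (15). The mesenchyme list held 21 ectoderm-alone and 5 molars-alone regions. Its interval still includes the share of all regions, and 6 regions of the mesenchyme list had the pattern when all peaks were used.

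At Trp63 the members stood among many other regions. Over the gene and 25 kb on each side lay 21 regions, of which 2 were members, 5 were open in ectoderm alone, 2 in both molars alone and none in all 7 libraries. The ectoderm replicates had 15 and 12 of them, the lower molar 12, the upper molar 10, the incisor 5 and the Sox2-positive replicates 5 and 2. Ectoderm and molars thus had more open regions at Trp63 than incisor and Sox2-positive cells. At Shh, with 6 regions, the counts were 3 and 4, 5 and 5, 0, and 1 and 1 in the same order, so that the incisor had no region in this window. Neither gene can speak for its list, since both were chosen after their members were seen. The counts also include the members, whose presence and absence the rule fixed. Other loci differed in order. At Lgr6, with 22 regions, the ectoderm replicates had 9 and 10 and the Sox2-positive replicates 13 and 17. The incisor had 11 there, the lower molar 15 and the upper molar 17.

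**Figure D5:**
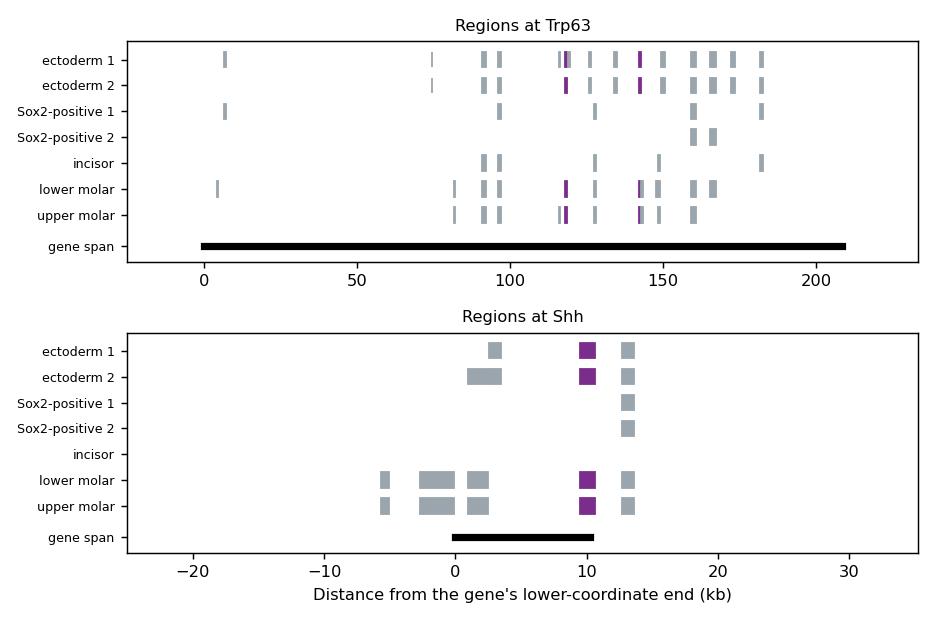
Regions with a peak in each library (rows) over Trp63 and Shh, by distance in kb from the lower-coordinate end of the gene (x axis). Purple bars are member regions, grey bars other regions, bar widths are to scale and the black line is the gene. At Trp63 both members are empty in the Sox2-positive and incisor rows, and those rows have 5, 2 and 5 of the 21 regions.

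Gene ends with the members' pattern were rare among all genes, 54 of 20665 (0.261%), so few were to be found near distal members. Of 668 genes with a member over 1 kb from the gene end, 418 (62.6%, 58.8 to 66.2) had a peak at a gene end in all 7 libraries. That share was 56.8% among the 12537 genes with any distal region, 56.4% among genes with an ectoderm-alone region and 63.3% among genes with a molars-alone region. A peak at a gene end in the members' own 4 libraries and no other was found for 5 genes (0.749%, 0.320 to 1.74), against 0.303% of genes with any distal region. Among genes named above, Cdh1, Esrp2, Fgfr2, Itga6, Jup, Krt5, Perp, Egfr, Gli2, Gli3 and Tead1 had a peak at a gene end in all 7 libraries. Zfp750 had one in both ectoderm libraries and the lower molar, and Tfap2b in ectoderm alone. Krt7 had one in ectoderm replicate 2 alone, and Trp63, Itgb6 and Pax7 had none in any library.

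Promoters under members were few and poor in CpG. Each gene was counted with 1 window. A window under a member was taken first, then one under any other region, otherwise the first by position. Another start of a counted gene may thus be open in other libraries, and the comparisons of promoters rest on this choice. Of 25748 genes with a promoter window in the RefSeq table, 36 had at least 150 of the 300 bases under a peak in exactly the 4 libraries and a member at the middle of the window, in 34 members, and 22 of the genes code for proteins. Their median GC content was 53.5% and their median number of CpG 6.5. Promoters open in all 7 libraries had 63.0% and 23, those open in ectoderm alone 57.7% and 12, and those open in the molars alone 48.3% and 4. The median number of CpG over all promoters was 8. Promoters with the pattern thus stood nearer to the average promoter in CpG than to the promoters open everywhere.

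Of 24 motifs searched by their letters on both strands, 2 had an interval wholly above the share of all promoters and of promoters under any region. The MEIS letters were in 13 of 36 promoters (36.1%, 22.5 to 52.4), against 19.1% of all promoters and 16.3% of those under a region. The TEAD letters were in 10 (27.8%, 15.9 to 44.0), against 14.5% and 12.2%. Promoters open in the molars alone, 25 in number, had MEIS letters in 32.0% (17.2 to 51.6) and TEAD letters in 24.0% (11.5 to 43.4), and those open in ectoderm alone in 21.6% and 14.0%. The members' intervals overlap those of the molars-alone promoters, so neither motif is shown to be particular to the members. AP-1 letters were in 3 (8.33%, 2.88 to 21.8), against 7.92% and 4.82%, and TFAP2 letters in 7 (19.4%, 9.75 to 35.0), against 16.9% and 26.2%. With 36 windows, of which those of Lrp8 and its antisense neighbour Lrp8os2 overlap, and 24 motifs, these shares are a description. A match of letters is not a bound site, and the distal members, for which no sequence was used here, are not covered.

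The values on both sides of the limit were close. The members nearest to it had their worst rank at 37980 (in Smyd2), 37986 (in Dpysl5), 37988 (by Fem1a), 37994 (in Rab40c) and 37996 (by Cryl1), each in the lower molar. Cryl1 was an extreme case, at ranks 776 and 749 in ectoderm. Just outside, regions near Trim29, Clk3 and Trim72 had their upper molar peak at ranks 38004, 38005 and 38012, and regions near Iqgap1 and Ptpn3 their lower molar peak at 38021 and 38047. In all, 916 regions had the pattern but for 1 missing library among the 4, and 850 of them had a peak of that library in its full list, 655 in a molar and 195 in ectoderm.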

How the data were processed

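Sample titles gave the 5 groups of the 7 ATAC-seq libraries. Each library has 1 deposited peak list, in narrowPeak layout. Per the submitters' processing notes, Genrich, Bowtie2, Trimmomatic, FastQC and deepTools were used with build mm10 (GRCm38). Their options, read filters and the transposase shift are not given in the sources used here. The deposited signal of a peak and its deposited −log10 p-value are the authors' and were used only to rank peaks within a list. Depth is unknown, so no interval covers sequencing error.

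The members, the gene lists and the rule for named genes (15 members with the best worst rank, 5 at gene ends, 15 genes with most members, listed genes with a member, 5 regions on each side of the limit) were chosen with earlier results of these data known. Regions were merged, ranked and annotated in Python 3.11.15 with pandas 2.3.3 and NumPy 2.4.6, tested on simulated data. The RefSeq table of GRCm38.p6 holds 20665 protein-coding genes on these chromosomes and no strand, so either end of a gene was used in place of its start. Distances run from region centres. A gene end had a peak if a top peak lay within 1 kb of it. Shares have Wilson and differences Newcombe 95% intervals, which cover the counting of regions. No p-value was computed, since regions are not replicates. Alternatives changed the ranking, list length, overlap, summits, the full lists, single libraries and gene windows. Planned motif counts over whole regions were not run, since no genome was used here. Results for some members are not reported here.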

Additional observations from a re-analysis of the deposited data

How the results depend on the processing

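The 926 members became 400 with 20000 peaks per library, 3041 with all peaks and 475 when absence was required in the full Sox2-positive and incisor lists, and 1038 to 1551 with a library left out. Nearness to a gene end (6.16% within 1 kb) was 11.75% with 20000 peaks, 8.25% with all peaks, 12.7% when 50% of a region had to be covered, 8.82% with windows around summits, 4.63% with absence from the full lists, 4.10% and 13.0% with windows of 500 bp and 2.5 kb, and 6.07% to 9.35% with a library left out. The share with a peak in the full incisor list, 44.3%, was 62.1% with 30000 peaks, 87.75% with 20000, 69.5% with 50% coverage, 49.7% with summit windows, and 41.4% to 50.3% with a library left out. It has no meaning with all peaks or with absence from the full lists. The stratified epithelium share, 4.68%, was 1.82% with 20000 peaks, 2.68% with absence from the full lists, and 4.71% to 5.42% with a library left out, and stayed within its interval under 14 of 16 settings. Ranking by signal moved none of these 4 values beyond its limits, but only 526 of the 926 members (56.8%) overlapped a region with the pattern. For the shares, those limits are the Wilson interval, and for counts 1.5 times. The cause of these shifts was not tested.

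No paired analysis was possible because the results are counts of regions and come from no test across libraries. Depth per library is unknown, list lengths differ, and each whole tooth has 1 library, so absence of a peak is not shown to be absence of open chromatin. Motif counts over whole regions and over members far from gene starts were not run, as no genome was used here. Alternatives by gene body and by distance over 1 kb were added after seeing the data.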

Other observations

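Chromosome X was outside the rule. With peaks at least as significant as the weakest peak used on chromosomes 1 to 19 in each library, 3 of its 1198 regions (0.250%) had the pattern. Their nearest gene ends were those of Itm2a at 0.154 kb, of Pou3f4, a POU-domain transcription factor, at 0.188 kb and of Fundc1 at 7.77 kb. On chromosomes 1 to 19 the share was 1.20%.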
